A study of Mus musculus with 13 samples.

Results

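The 34 genes described here encode the folding and secretion machinery of the endoplasmic reticulum (ER). They were listed by name, with no threshold on a measured value but with earlier results of these data known, and all 34 were found among the 16204 genes measured in 13 single-cell libraries from mouse small intestine. By role they are 12 chaperones and their partners (Hspa5, Hsp90b1, Hyou1, Calr, Canx, Dnajb9, Dnajb11, Dnajc3, Dnajc10, Sdf2l1, Manf and Creld2), 6 enzymes that form disulphide bonds (P4hb, Pdia3, Pdia4, Pdia6, Txndc5 and Qsox1), 10 components of protein entry and first processing (Sec61a1, Sec61b, Sec61g, Ssr1, Ssr2, Ssr3, Ssr4, Spcs1, Spcs2 and Ostc), 3 genes of transport and supply (Kdelr2, Yipf5 and Slc35b1) and 3 genes of the stress response (Atf4, Ddit3 and Herpud1).

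The study followed the Paneth cell lineage of the crypt. All mice were Lgr5-CreERT2 animals on C57Bl6/J crossed to a Rosa26LSL-YFP reporter, so that tamoxifen switched on YFP in cells expressing Lgr5, a receptor that marks crypt stem cells, and in their later offspring (traced cells). Traced cells were taken 5 days after tamoxifen (5 libraries), at 3 weeks with a CD24+ gate (1 library), at 8 weeks with a CD24+ gate (3 libraries) and at 8 weeks with no such gate (1 library). By their labels, CD24+ cells without the YFP mark (non-traced cells) were taken at 3 weeks (1 library) and at 8 weeks (2 libraries). CD24 is a surface protein that is high on Paneth cells and on several other crypt cells. Every group, controls included, carried the Cre and the reporter. The labels used here give neither the age and sex of the mice nor how many animals entered a library, so that p-values measure the spread between libraries, which may be technical.

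Proteins bound for secretion enter the ER through the Sec61 channel, lose their signal peptide, receive sugars, and fold with the help of chaperones and of enzymes that join cysteines. When unfolded proteins build up, the sensors IRE1, PERK and ATF6 raise the output of this machinery through the transcription factors XBP1, ATF4 and ATF6. Paneth cells fill granules with antimicrobial peptides, goblet cells fill theirs with mucin, and both cell types are known for an extensive ER.

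CEL-seq counts the 3′ ends of transcripts with molecular barcodes, so that a gene's level does not scale with its length. Of 1248 cell barcodes, the 892 with at least 3000 transcripts were kept, 50 to 87 per library from totals of 421675 to 1385266 transcripts. Cells were grouped by clustering that used neither the 34 genes nor 147 other ER genes, and classes were named from marker genes, with no doublet caller run. This gave 62 Paneth-like, 79 goblet-like, 157 stem-like, 212 proliferating, 104 enteroendocrine-like, 139 tuft-like and 55 enterocyte-like cells, and left 84 unnamed. Between 6 and 11 libraries held at least 3 cells of a class. Xist, the transcript of the inactive X chromosome, did not exceed 0.0131 per 10000 transcripts in any of the 5 libraries of 5 days, whereas the 8 others held 0.816 to 1.79, so that sex and time cannot be told apart between 5 days and 8 weeks. The 8-week libraries tested against 5 days also had the CD24+ gate, and values of the 8-week library without it are given beside those results. In the combined table the names of the cells labelled non-traced CD24+ at 3 weeks contain YFP and lack CD24, against their label. They enter the class comparisons below and no tested comparison of conditions.

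The promoters of several of these genes hold the letters that the stress response is known to read, and they are shown because most of these genes rose together in 2 cell classes below. Promoters of 27 of the 34 genes were matched in RefSeq (GRCm38.p6) and searched on both strands over the 250 bases before the start. The ER stress response element (ERSE: CCAAT, then 9 bases of any kind, then CCACG), read by ATF6 and XBP1 together with NF-Y, was present in 7 of the 27 members (25.9%) and in 35 of all 27025 genes with a promoter (0.130%), each gene counted once over its annotated starts. ERSE-II (ATTGG, then any base, then CCACG) was present in 1 member, Herpud1 (3.70%), and in 10 of all genes (0.0370%). Among 117 other ER genes with a promoter, 2 held an ERSE and 1 an ERSE-II. Each site of a member is given on the strand of its gene with 20 bases on either side and the element in capitals. Those of Calr and Creld2 and the second of Hsp90b1 hold the element on the other strand.
Hspa5, chr2:34772005-34772063: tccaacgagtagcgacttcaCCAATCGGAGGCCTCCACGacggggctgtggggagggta
Hsp90b1, chr10:86705618-86705676: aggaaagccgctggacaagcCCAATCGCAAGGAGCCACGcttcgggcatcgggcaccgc
Hsp90b1, second element, chr10:86705513-86705571: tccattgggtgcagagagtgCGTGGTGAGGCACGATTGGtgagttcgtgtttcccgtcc
Calr, chr8:84847055-84847113: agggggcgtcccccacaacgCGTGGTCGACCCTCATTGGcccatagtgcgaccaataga
Canx, chr11:50325780-50325838: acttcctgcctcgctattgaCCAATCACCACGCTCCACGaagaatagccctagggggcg
Pdia6, chr12:17266471-17266529: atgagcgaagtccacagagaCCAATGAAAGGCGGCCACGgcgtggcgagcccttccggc
Dnajc3, chr14:118937807-118937865: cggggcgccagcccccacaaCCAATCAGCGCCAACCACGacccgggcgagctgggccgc
Creld2, chr15:88819500-88819558: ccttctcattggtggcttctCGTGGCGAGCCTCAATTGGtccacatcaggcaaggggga
Herpud1, ERSE-II, chr8:94386357-94386407: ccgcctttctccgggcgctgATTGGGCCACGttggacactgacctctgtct

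Other elements of the stress response were found in fewer members. The XBP1 core TGACGTG was found in Hspa5 and Txndc5 (7.41% of 27 members, against 1.85% of all genes), and the element read by ATF4 and its partners, searched as TGATG, any base, AA and any base, in Herpud1 and Txndc5 (7.41% against 3.89%). Among the 117 other ER genes with a promoter, 10 held the XBP1 core and 8 the ATF4 element. The sites of members are shown in the same way.
Hspa5, XBP1 core, chr2:34771913-34771959: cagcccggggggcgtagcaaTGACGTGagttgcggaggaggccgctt
Txndc5, XBP1 core before an annotated start inside the gene, chr13:38528026-38528072: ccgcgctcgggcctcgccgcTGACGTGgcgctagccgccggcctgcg
Herpud1, ATF4 element on the other strand, chr8:94386296-94386344: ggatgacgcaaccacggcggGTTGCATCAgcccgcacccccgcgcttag
Txndc5, ATF4 element on the other strand before the outermost start, chr13:38528902-38528950: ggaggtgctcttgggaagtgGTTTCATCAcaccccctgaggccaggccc
A match is a description of letters and not a measured binding site.

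Goblet-like cells gave the highest share of their transcripts to the 34 genes. The summed share was 1.86% ± 0.376 (SD, n = 8 libraries) in goblet-like cells, 1.06% ± 0.109 (n = 7) in enteroendocrine-like, 0.997% ± 0.116 (n = 6) in enterocyte-like, 0.741% ± 0.200 (n = 8) in Paneth-like, 0.648% ± 0.022 (n = 7) in tuft-like, 0.638% ± 0.062 (n = 11) in proliferating and 0.588% ± 0.063 (n = 9) in stem-like cells. Enteroendocrine-like and enterocyte-like cells did not differ beyond their spread. The spreads of tuft-like, proliferating and stem-like libraries also overlapped, but the tuft-like share was above the stem-like one in 4 of 4 libraries with both (log2 ratio 0.064 ± 0.061 SD). Within libraries that held both classes, the goblet-like share was 2.98-fold the stem-like share and higher in 6 of 6 libraries, while the Paneth-like share was higher in 4 of 6 (log2 ratio 0.17 ± 0.37 SD).

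The Paneth-like share is measured against a total that Paneth products fill. Paneth marker genes, mostly defensins and lysozyme, took 322365 to 505174 CPM in Paneth-like sums, where CPM are counts scaled to the same total of all transcripts per sum. Counted against transcripts outside the class marker lists, the Paneth-like share was 1.41% ± 0.533, the goblet-like share 2.08% ± 0.421 and the stem-like share 0.594%. The log2 ratio of Paneth-like to stem-like cells was then 0.96, and that of Paneth-like to goblet-like cells moved from -1.30 to -0.64.

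**Figure D1:**
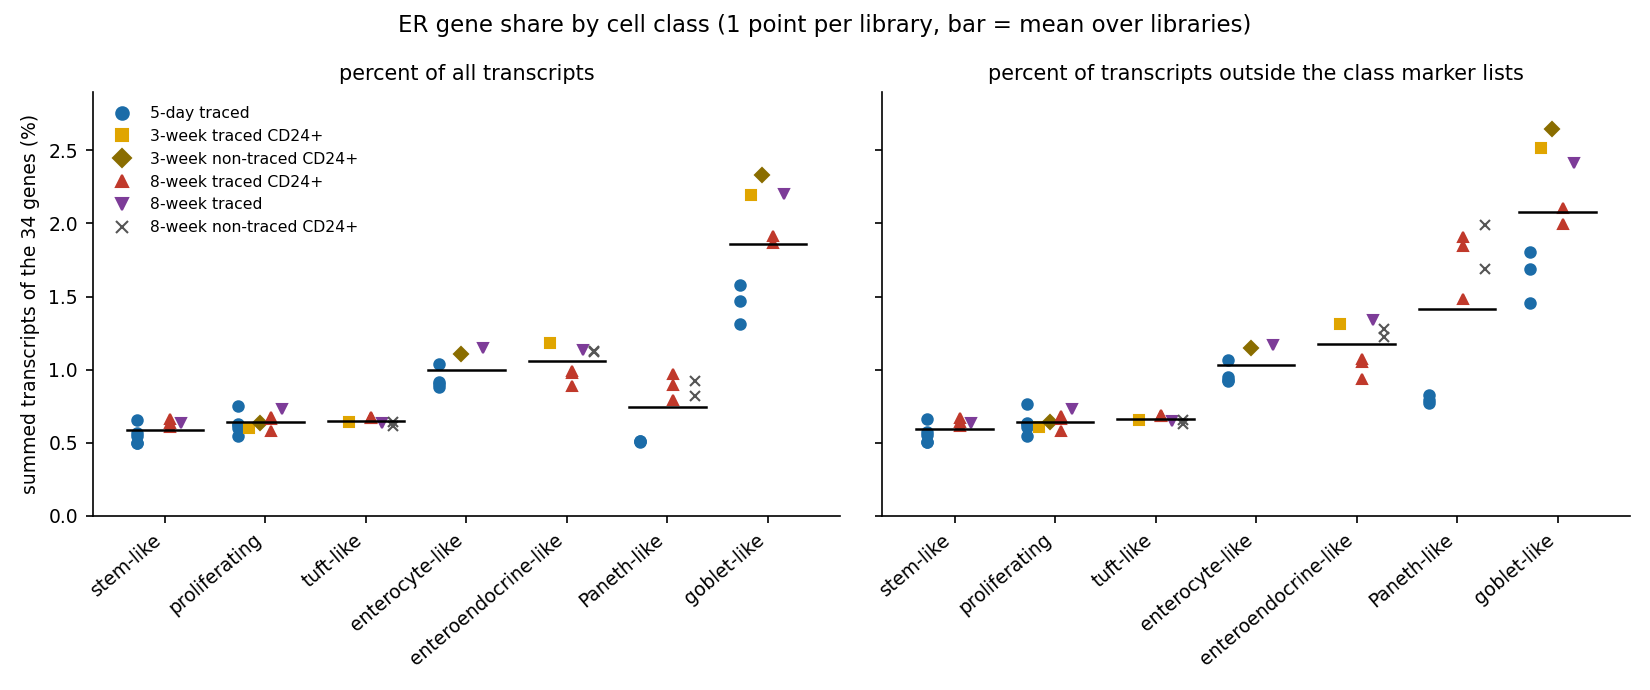
Summed transcripts of the 34 ER genes as a percent of all transcripts (left) and of transcripts outside the class marker lists (right) for each cell class on the x axis. Each point is 1 library, coloured by group, and bars are means over libraries. Goblet-like libraries lie highest in the left panel, and Paneth-like libraries rise from a mean of 0.741% to 1.41% between the panels.

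Gene by gene, the goblet-like class held the highest mean level for 23 of the 33 members that passed the filter on low counts, the Paneth-like class for 9 and the enterocyte-like class for 1, Canx. Over all 4204 genes tested, goblet-like cells were highest for 10.5% and Paneth-like cells for 11.8%. Levels here are normalised CPM, that is, scaled with edgeR's TMM factors, which were 0.458 to 0.633 for the Paneth-like sums. Scaled by total transcripts alone, the same count was 29 for goblet-like and 0 for Paneth-like cells. Ddit3, the stress-induced factor CHOP, was the member that did not pass, with 1 to 3 transcripts in each Paneth-like sum and 12.5 to 33.5 CPM.

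**Figure D2:**
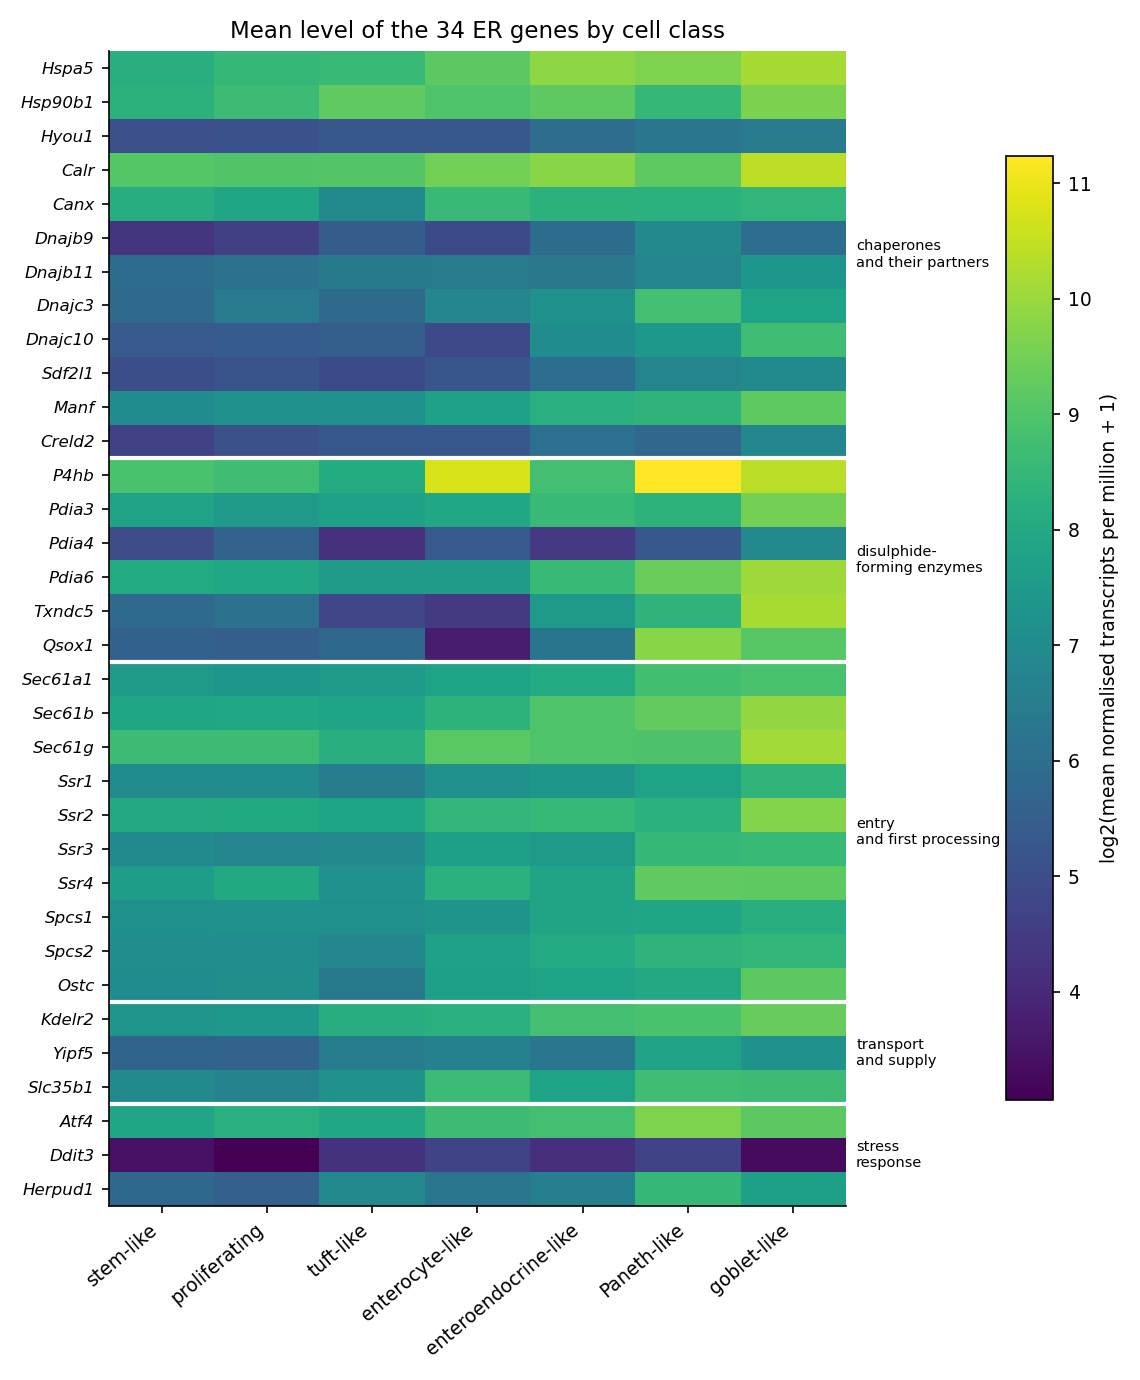
Mean normalised level of each ER gene (rows, ordered by role) in each cell class (columns), as log2(mean CPM + 1). Goblet-like cells hold the highest mean for 23 of 33 genes and Paneth-like cells for 9.

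At the normalised scale, Paneth-like cells held more of most ER genes than stem-like cells, while scaled by total transcripts 13 members rose and 6 fell. Of 33 members tested at the normalised scale, 25 rose and none fell (edgeR quasi-likelihood test, adjusted p under 0.05), and 16.3% of all genes tested rose. Some members, such as Dnajb9 and Dnajc10, did not exceed 35.1 and 57.5 CPM in any stem-like library. They passed the filter on low counts only through other classes, which favours a rise and leaves little room for a fall. The median log2 difference of the members was 1.30, against -0.08 over all genes. Scaled by total transcripts it was 0.27, against -1.09 over all genes. In 5-day libraries alone, 10 of 28 rose and Calr fell (log2 -0.70, adjusted p 0.046).

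The disulphide-forming enzymes held the member with the largest difference, and 4 of 6 rose. Qsox1, a sulfhydryl oxidase that can itself be secreted (chr1:155778155-155812899), lay at 197, 252 and 280.2 CPM in the 5-day Paneth-like libraries. It lay at 896, 1015 and 1286 in the 8-week traced CD24+ libraries and at 1429 and 1620.1 in the non-traced ones. Stem-like libraries ran from 0 to 109 with a median of 49.7, so the classes did not overlap. The log2 difference was 3.82 ± 0.25 (SE; adjusted p 3.2e-21, edgeR), and Paneth-like cells were higher in 6 of 6 libraries with both classes. P4hb, protein disulphide isomerase itself, ran from 1288 to 3728 (median 2468) in Paneth-like and from 311 to 664 (median 500) in stem-like libraries, again without overlap (2.25 ± 0.20). Txndc5 rose by 2.67 and Pdia6 by 1.30, while Pdia3 (0.42) and Pdia4 (0.49) did not pass.

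Among the chaperones and their partners 8 of 12 rose. Dnajc3, a co-chaperone of Hspa5 that also restrains PERK, ran from 93.1 to 736 (median 525.9) in Paneth-like and from 17.5 to 132 (median 53.5) in stem-like libraries (2.77 ± 0.23, adjusted p 1.5e-16, edgeR). Its ranges overlapped through the 5-day Paneth-like library at 93.1. Hspa5, the main Hsp70 chaperone of the ER, also known as BiP, ran from 303 to 1393 against 125.5 to 464 (1.18 ± 0.18, adjusted p 3.2e-07, edgeR; higher in 6 of 6 libraries). Dnajb9 rose by 2.89, Dnajc10 by 2.30, Sdf2l1 by 1.78, Manf by 1.32, Hyou1 by 1.27 and Dnajb11 by 0.94. The glycoprotein chaperones Calr (0.12) and Canx (0.30), the Hsp90 paralogue Hsp90b1 (0.16, adjusted p 0.51, edgeR) and Creld2 (0.83) did not pass. Of these 4, all have an ERSE in the printed sequences, as do Hspa5, Dnajc3 and Pdia6, which rose.

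Of the genes of entry and first processing 8 of 10 rose (median 1.04 over the 10). Ssr4 (1.61), Ssr3 (1.45), Ssr1 (0.78) and Ostc (0.90) belong to complexes beside the channel, Sec61b (1.39) and Sec61a1 (1.17) to the channel itself, and Spcs2 (1.27) and Spcs1 (0.75) to the signal peptidase. Sec61g (0.28) and Ssr2 (0.34) did not pass. The 3 genes of transport and supply all rose: Slc35b1, which carries ATP into the ER (1.96), Yipf5, a membrane protein of ER to Golgi traffic (1.85), and Kdelr2, the receptor that returns escaped ER residents (1.43). Scaled by total transcripts, Dnajb11, Ostc, Spcs1 and Ssr1 turned to values below 0.

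Both tested genes of the stress response rose. Herpud1, a part of the ER degradation complex, ran from 152 to 600 (median 406) in Paneth-like and from 0 to 105 (median 54.03) in stem-like libraries, with no overlap (2.58 ± 0.22, adjusted p 5.8e-16, edgeR). Atf4, the transcription factor downstream of PERK, ran from 412 to 1135 against 164 to 341, with no overlap (1.71 ± 0.17, adjusted p 4.0e-13, edgeR). Of the 33 members, 7 were higher with no overlap between Paneth-like and stem-like libraries, and so were 3.85% of all genes tested. An ERSE or ERSE-II was held by 8 of the tested members with a promoter, of which 4 rose (median 1.01), and of the 18 with neither 15 rose (median 1.53).

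**Figure D3:**
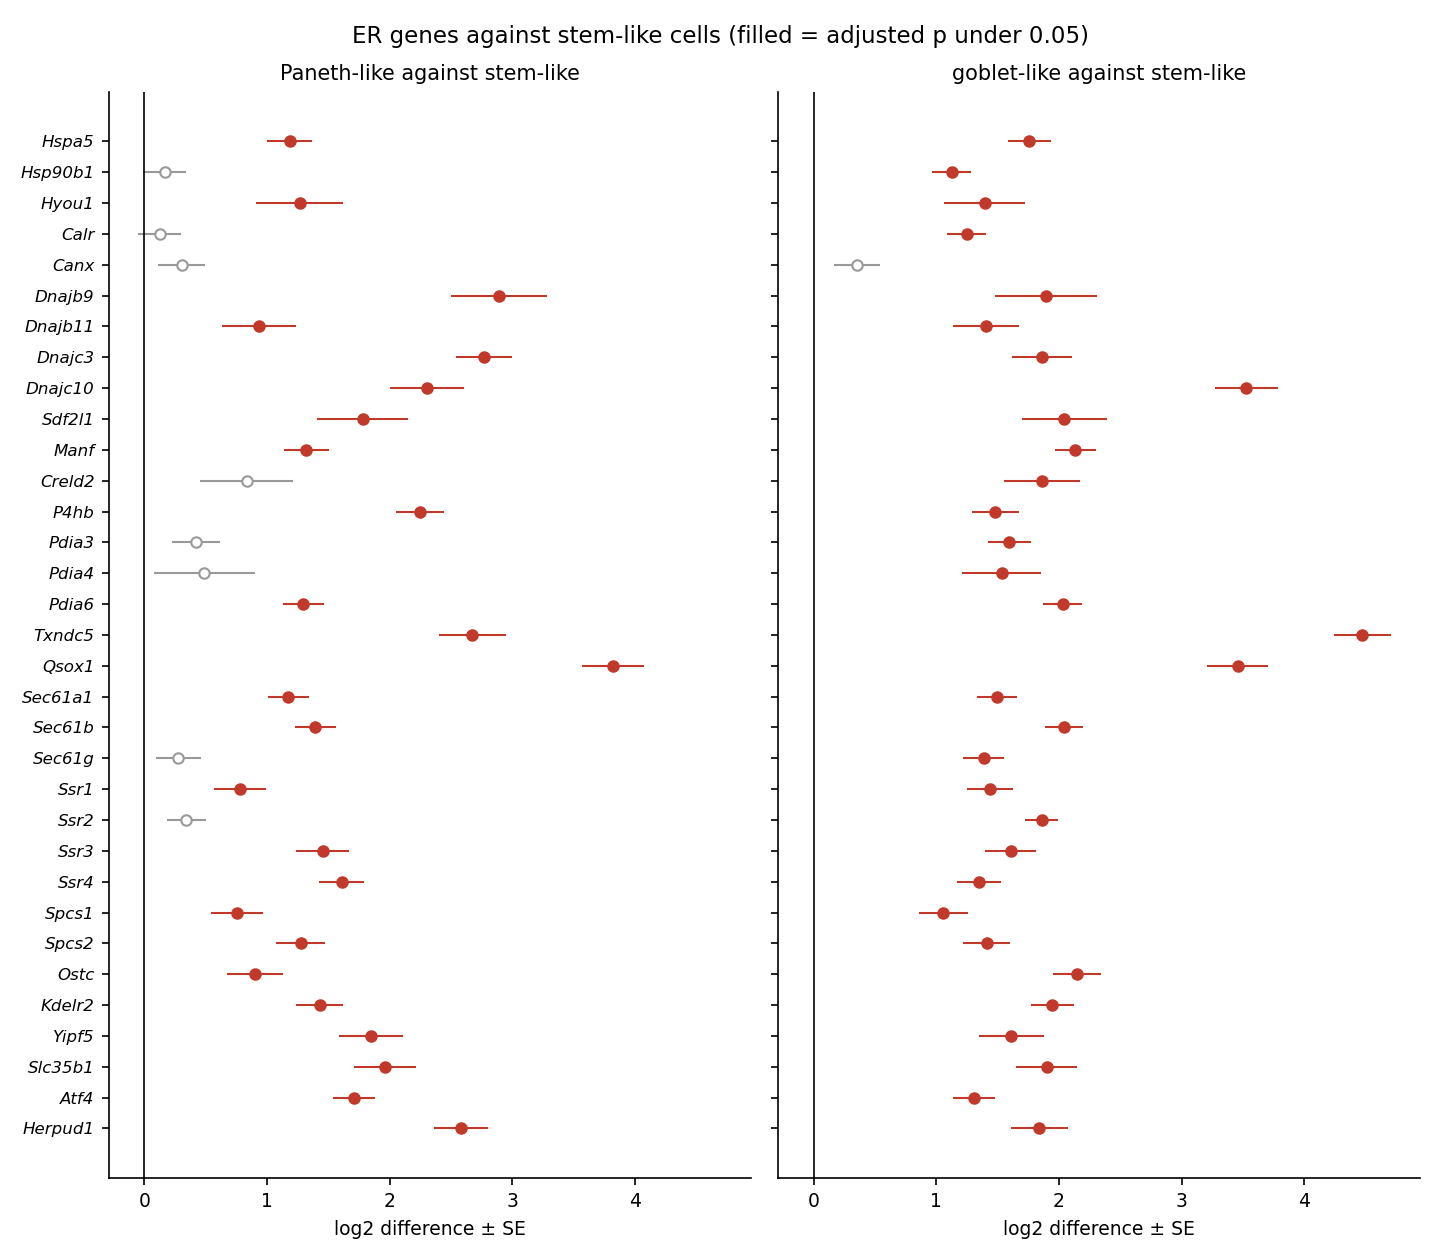
Log2 difference (x axis, with SE bars) of each tested ER gene in Paneth-like (left) and goblet-like cells (right) against stem-like cells, filled where the adjusted p was under 0.05. On the left 25 of 33 genes are filled and all lie above 0, 4 of which turn below 0 when scaled by total transcripts, and on the right 32 of 33 are filled.

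Goblet markers were present in the Paneth-like class beside these values. All 16 goblet markers were detected there, summing to 9429 to 28498 CPM of all transcripts, against 387 to 1370.2 in stem-like cells. Cells in which another secretory class's markers reached 0.25 of that class's own median share were called mixed, 17 of the 62 Paneth-like cells. Without mixed cells 22 of 33 members rose against stem-like cells. Of the markers of lymphocytes and myeloid cells 2 of 15 were detected in Paneth-like sums, summing to 28.8 to 119.6 CPM of all transcripts, with Ptprc, Cd3e and Cd79a at 0. Of 4 plasma cell markers 3 were detected, at 16.9 to 63.2.

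Goblet-like cells held more of nearly every member than stem-like cells: 32 of 33 rose, against 16.2% of all genes, and the member median was 1.61. The comparison shares its stem-like libraries with the one above, and also the filter on low counts that favours a rise of members low in stem-like cells. Txndc5, a thioredoxin-domain isomerase (chr13:38500266-38528824) and one of the 10 leading genes of the goblet-like cluster, ran from 835 to 1377 (median 1126) against 29.96 to 106 (median 58.4) in stem-like libraries. The groups lay far apart (4.47 ± 0.23, adjusted p 6.2e-26, edgeR). Dnajc10, an ER disulphide reductase, ran from 308 to 626 against 19.97 to 57.5 (3.53 ± 0.26, adjusted p 5.5e-19, edgeR). Qsox1 ran from 258 to 780 against 0 to 109 (3.46 ± 0.25, adjusted p 5.0e-19, edgeR).

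Members of every role rose in goblet-like cells, and 19 of 33 were higher with no overlap with stem-like libraries, against 5.00% of all genes tested. The disulphide-forming enzymes rose in 6 of 6 genes, entry in 10 of 10, transport and supply in 3 of 3, the stress response in 2 of 2 tested and the chaperones in 11 of 12. Ssr2, which did not pass in Paneth-like cells, ran from 759 to 952 in goblet-like and from 171 to 352 in stem-like libraries (1.86). Calr (1.25), Hsp90b1 (1.13), Hspa5 (1.76), Manf (2.13), Ostc (2.15) and Sec61b (2.04) rose too. Canx alone did not pass (0.36, adjusted p 0.14, edgeR).

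Set directly against goblet-like cells, Paneth-like cells were lower for 14 members and higher for 3. The shares of all genes called were 6.54% lower and 6.04% higher. The member median was -0.47, and the direction of the 3 higher genes turned when scaled by total transcripts, under which 29 were lower and 0 higher. Ssr2 showed the clearest gap: 217 to 424 (median 317) in Paneth-like and 759 to 952 (median 839) in goblet-like libraries (-1.52 ± 0.16, adjusted p 3.5e-12, edgeR). Txndc5 lay at 152 to 512 against 835 to 1377 (-1.80 ± 0.22, adjusted p 2.1e-09, edgeR). Calr lay at 249 to 1035 against 1031 to 1961, so that its ranges met at their ends (-1.12 ± 0.18, adjusted p 1.2e-06, edgeR). All 3 were lower in Paneth-like cells in 4 of 4 libraries with both classes.

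The other lower members came from each of the folding and entry roles: Ostc (-1.24), Dnajc10 (-1.23), Pdia3 (-1.17), Sec61g (-1.11), Creld2 (-1.03), Hsp90b1 (-0.96), Manf (-0.81), Pdia6 (-0.74), Ssr1 (-0.66), Sec61b (-0.65) and Hspa5 (-0.58, adjusted p 2.7e-02, edgeR). Dnajc3 (0.90 ± 0.22, adjusted p 2.3e-03, edgeR), P4hb (0.76 ± 0.20, adjusted p 4.0e-03, edgeR) and Herpud1 (0.74 ± 0.21, adjusted p 1.1e-02, edgeR) were the higher ones. Atf4 (0.40, adjusted p 0.14, edgeR) did not pass, nor did Qsox1 (0.36). In 5-day libraries alone 0 members were higher and 11 of 28 lower, and in 8-week CD24+ libraries 7 were higher and 6 of 32 lower. Without mixed cells 1 was higher and 15 lower.

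Enteroendocrine-like and enterocyte-like cells held part of the module at a raised level. In enteroendocrine-like cells, which secrete hormones, 14 of 33 members rose against stem-like cells (19.8% of all genes; member median 0.52). The smallest p-values were those of Dnajc10 (1.85 ± 0.31, adjusted p 1.1e-06, edgeR), Hspa5 (1.07 ± 0.19, adjusted p 3.2e-06) and Txndc5 (1.66 ± 0.30, adjusted p 5.0e-06), and Hspa5 ran from 611 to 1265 there. P4hb (-0.21) and Qsox1 (0.06) did not pass. In enterocyte-like cells, which absorb and export lipid, 17 of 33 rose (20.6% of all genes; median 0.51). P4hb, which is also a subunit of the lipid transfer complex MTP, ran from 1098 to 2505 there and from 311 to 664 in stem-like libraries (1.83 ± 0.20, adjusted p 1.6e-11, edgeR). Slc35b1 (1.93 ± 0.27, adjusted p 1.6e-08, edgeR) and Hspa5 (1.22 ± 0.20, adjusted p 6.4e-07, edgeR) followed, and all 3 genes of transport and supply rose. Qsox1 (-1.27, adjusted p 0.07, edgeR) and Txndc5 (-1.06, adjusted p 0.087, edgeR), both high in goblet-like cells, did not pass. With enterocyte-like and stem-like cells fitted alone, 8 of 21 rose.

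Tuft-like cells, chemosensory cells of the epithelium, differed from stem-like cells in few members and in both directions: 3 rose and 7 fell, against 21.4% and 25.1% of all genes. Hsp90b1 (0.64 ± 0.17), Dnajb9 (1.41) and Herpud1 (0.68) rose. Canx had the smallest p of those that fell, with 92.5 to 145 in tuft-like and 173 to 378 in stem-like libraries and no overlap (-0.97 ± 0.22, adjusted p 2.1e-04, edgeR). P4hb (-0.90 ± 0.23), Txndc5 (-1.25), Ostc (-0.74), Ssr4 (-0.63), Pdia6 (-0.60) and Sec61g (-0.50) fell as well. The 7 that fell were 2 by DESeq2, 2 with classes set by marker share, 3 at a finer clustering and 1 with tuft-like and stem-like cells fitted alone, and the 3 that rose were 1 by marker share.

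In Paneth-like cells most of the module was higher at 8 weeks than at 5 days after tamoxifen. Of 27 members tested between the 3 traced CD24+ libraries of 8 weeks and the 3 traced libraries of 5 days, 22 rose and none fell, against 21.7% of all 1094 genes tested. The member median was 1.17, against 0.01 over all genes, and 19 of the 27 were higher with no overlap between the groups, against 23.9% of all genes tested. The summed share was 0.510% ± 0.004 (n = 3) at 5 days, 0.885% ± 0.092 (n = 3) in 8-week traced cells and 0.870% ± 0.075 (n = 2) in 8-week non-traced cells. The gate and the sex marker differ together with time in this comparison, and the 8-week library without the gate held 2 Paneth-like cells, too few to enter it (median share 0.892%). The Paneth-like class was 2 clusters, both led by defensins, Ang4 and Lyz1, and the times lay mostly in different ones. The first held 0 of the 21 cells of 5 days and 20 of the 27 of 8-week traced CD24+ libraries (median share 0.970%), and the second held all 21 of 5 days (0.540%) and the other 7 of 8 weeks (0.646%). Paneth markers moved with it, from a median of 37.1% of a cell's transcripts at 5 days to 49.9%, as did goblet markers, from 1.02% to 2.19%. Their part in the result was not tested. Mixed cells were 0 of 21 at 5 days and 12 of 27 at 8 weeks, and without them 12 of 26 members rose. Scaled by total transcripts 14 rose, and without replicate 3 of the 8-week traced CD24+ libraries 14 rose.

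Qsox1 rose from 243 ± 42.4 to 1066 ± 199.95 (SD, n = 3 each; log2 2.19 ± 0.28, adjusted p 1.4e-04, edgeR), and its 2 groups, whose values are given above, were well apart. Yipf5 lay at 30.9, 37.6 and 75.6 at 5 days, from 1 to 5 transcripts per library, and at 314, 332 and 345 at 8 weeks (2.67 ± 0.39, adjusted p 3.3e-04, edgeR). With so few transcripts at 5 days, Yipf5 passed the filter on low counts only through its 8-week libraries, which favours a rise. Yipf5 is counted among the 22 members that rose and the 19 without overlap. The filter may favour a rise of other members too. Pdia3 and Ssr3, which also rose, lay at 30.9 in their lowest 5-day library. How many of the 22 depended on their 8-week libraries to pass the filter was not tested. Hspa5 lay at 303, 320 and 438 at 5 days and at 903, 1101 and 1212 at 8 weeks (1.70 ± 0.25, adjusted p 3.7e-04, edgeR). Qsox1, Yipf5 and Hspa5 did not overlap between the groups. With mixed cells left out they kept their calls, at 1.92, 2.47 and 1.496.

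By role, 5 of 5 disulphide-forming enzymes rose, 3 of 3 genes of transport and supply, 6 of 7 chaperones, 6 of 10 entry genes and 2 of 2 stress genes. Atf4 lay at 412, 507 and 693 at 5 days and at 840, 962 and 1127 at 8 weeks (0.95 ± 0.26, adjusted p 9.8e-03, edgeR). Hsp90b1 lay at 217, 228 and 302 at 5 days and at 304, 551 and 563 at 8 weeks, the lowest 8-week library level with the highest of 5 days (0.97 ± 0.28, adjusted p 1.5e-02, edgeR). Both missed the threshold without mixed cells, at 0.74 and 0.85, and Herpud1 went from 0.91 to 0.31. Canx (0.27), Ssr1 (0.75), Ssr2 (0.03), Ssr4 (0.45) and Sec61g (0.86) did not pass. Of the tested members with an ERSE or ERSE-II 6 of 7 rose between these times (median 1.21), and of those whose promoter had neither 11 of 14 (median 1.10).

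**Figure D4:**
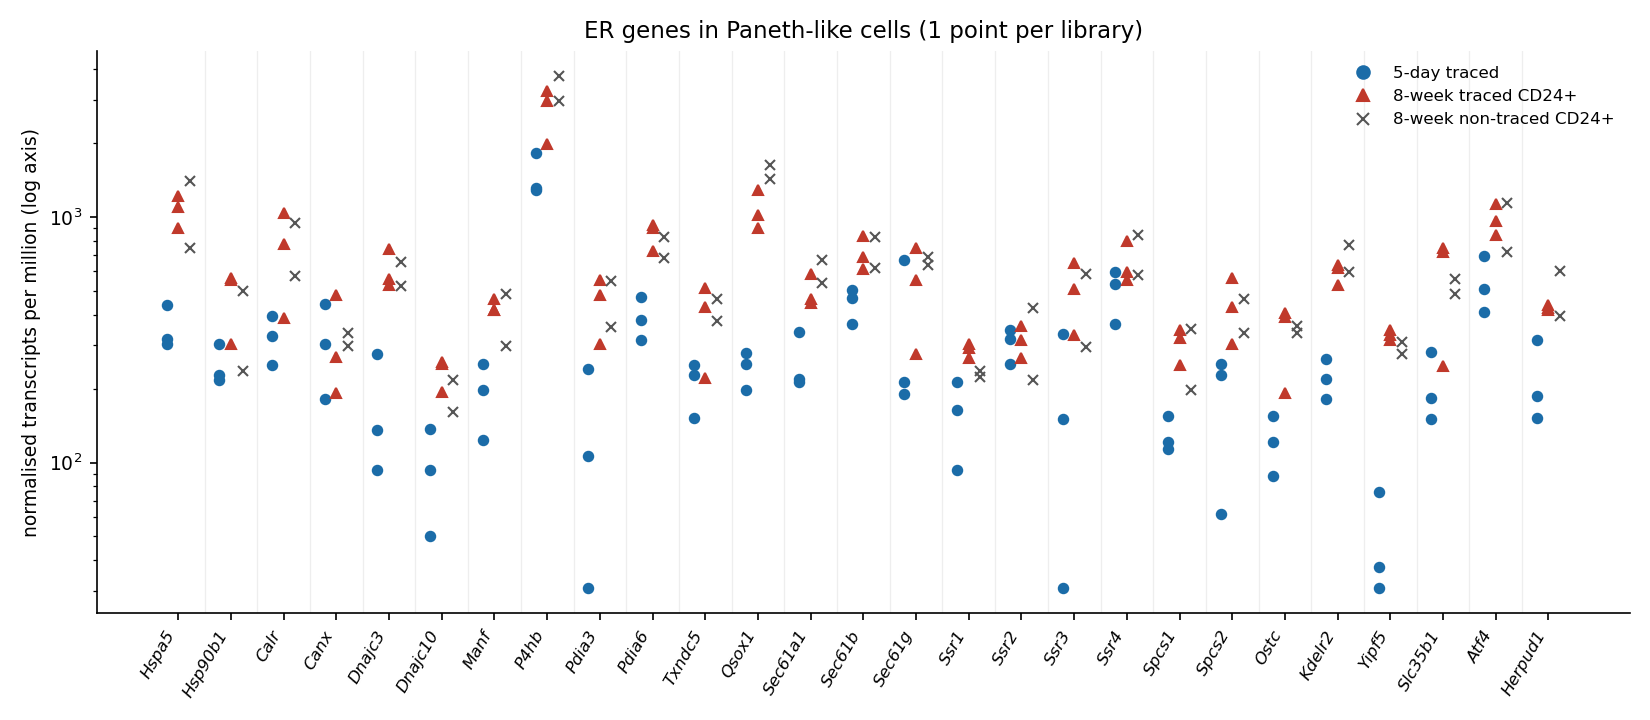
Normalised CPM (log axis) of the 27 tested ER genes in Paneth-like cells, 1 point per library, for 5-day traced, 8-week traced CD24+ and 8-week non-traced CD24+ cells. For 19 of the 27 genes, against 23.9% of all genes tested, the 8-week traced libraries lie above the 5-day ones with no overlap, and Ssr2 shows no such step; a level of 0 cannot be drawn on the log axis.

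The same times were compared in stem-like and goblet-like cells. In stem-like cells 3 of 22 rose and 1 fell, against 6.28% and 7.80% of all genes. Pdia3 lay at 115 to 172 in the 5 libraries of 5 days and at 255, 368 and 373 at 8 weeks (1.26 ± 0.23, adjusted p 5.8e-04, edgeR). Hspa5 lay at 125.5 to 304 and at 353, 415 and 464 (1.10 ± 0.22, adjusted p 1.6e-03, edgeR), and Sec61a1 rose too (0.90 ± 0.24). P4hb fell, from 500 to 664 at 5 days to 311, 332 and 455 at 8 weeks (-0.63 ± 0.19, adjusted p 2.7e-02, edgeR). This call was lost by DESeq2, scaled by total transcripts, with no filter on low counts, with classes set by marker share, at 5000 transcripts per cell, and without replicate 2 or 5 of 5 days or replicate 1 or 3 of 8 weeks. The 8-week library without the gate, in no fit of these times, lay within the range of the gated ones for Hspa5 (441), Pdia3 (265) and P4hb (365) and below it for Sec61a1 (167, against 183 to 297 gated and 118 to 151 at 5 days). Stem-like cells were 2 clusters as well, one with 80 of the 80 cells of 5 days and the other with 36 of the 37 of 8-week traced CD24+ libraries. In goblet-like cells Hspa5 (1.19 ± 0.26, adjusted p 2.0e-02, edgeR), Kdelr2 (0.91, adjusted p 4.9e-02, edgeR) and Pdia3 (1.16, adjusted p 4.9e-02, edgeR) rose of 25 tested, against 2.31% of all genes, from 3 libraries at 5 days and 2 at 8 weeks. Without any 1 of these 5 libraries at most 1 member rose. The goblet-like share was 1.45% ± 0.133 at 5 days and 1.89% ± 0.037 in the 8-week traced CD24+ libraries. It was 2.20% in the 8-week library without the gate (95% exact Poisson interval 2.12 to 2.29, covering counting error only), 2.20% in the 3-week traced library (2.14 to 2.26) and 2.33% (2.22 to 2.46) in the 3-week one labelled as non-traced.

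The difference between classes in this change was tested itself. The log2 change from 5 days to 8 weeks was higher in Paneth-like than in stem-like cells for 5 of 28 members (1.78% of all genes): P4hb (1.67 ± 0.28, adjusted p 4.4e-04, edgeR), Calr (1.48 ± 0.33, adjusted p 7.2e-03), Slc35b1 (1.79 ± 0.48, adjusted p 2.8e-02), Ostc (1.68 ± 0.46) and Txndc5 (1.71 ± 0.51). Most of these 5 did not rise in stem-like cells. Mean CPM there went from 565 to 366 for P4hb, from 585 to 497 for Calr and from 134 to 113 for Slc35b1. It went from 65.6 to 40.3 for Txndc5 and from 123 to 128 for Ostc. Qsox1 (-0.07) and Hspa5 (0.50) did not pass. Against goblet-like cells the log2 change was higher for 5 of 31 members (2.83% of all genes): Atf4 (1.48 ± 0.33, adjusted p 1.8e-02, edgeR), Slc35b1 (2.06 ± 0.49, adjusted p 2.2e-02), Pdia6 (1.39 ± 0.33, adjusted p 2.2e-02), Sec61g (1.45 ± 0.40) and Txndc5 (1.42 ± 0.39). Sec61g itself did not pass in either class fitted alone (0.86 in Paneth-like and 0.34 in goblet-like cells). The test against goblet-like cells rested on 4 libraries. These held both classes and were replicates 2 and 3 of 5 days and replicates 1 and 3 of 8-week traced CD24+ cells. The fits of a single class also used libraries without the other class. Sec61g ran from 189 to 666 CPM over the 3 Paneth-like libraries of 5 days. DESeq2 called 0 members in both tests, and without mixed cells edgeR called 1 and 0.

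At 8 weeks, traced and non-traced CD24+ cells were compared at the same time and gate. In Paneth-like cells 0 of 31 members passed (0.466% of all genes did), with differences from -0.53 to 0.83 and 1 member at an unadjusted p under 0.05; DESeq2 also called 0. Hspa5 averaged 1072 ± 156 (n = 3) in traced and 1068 ± 460 (n = 2) in non-traced cells (-0.02 ± 0.28). Qsox1 averaged 1066 ± 199.95 and 1524 ± 135 (-0.53 ± 0.26), Hsp90b1 differed by 0.34 ± 0.34 and Atf4 by 0.05 ± 0.27. In data simulated for this comparison the test found 26.5% to 36% of 2-fold changes and 78.05% to 96% of 4-fold changes, so that a 2-fold difference would often be missed.

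In enteroendocrine-like cells 0 of 31 members passed (0.322% of all genes) and 5 were at an unadjusted p under 0.05. Qsox1 was the one higher in traced cells (119 ± 26.8 against 50.4 ± 34.1; 1.55 ± 0.48, adjusted p 0.28, edgeR). Hspa5 (-0.53), Canx (-0.61), Sec61b (-0.64) and Dnajb9 (-1.25) were the others. The summed share was 0.949% ± 0.055 (n = 3) in traced and 1.13% ± 0.005 (n = 2) in non-traced cells. The enteroendocrine-like class was 3 clusters, over which these cells were spread unequally. The first, led by Gip and Chgb, held 21 of 30 non-traced cells (median share 1.18%) and 13 of 54 traced ones (1.12%). The second held 5 non-traced (0.807%) and 23 traced cells (0.861%), the third 4 (1.04%) and 18 (0.733%). How far this mix set the summed shares was not tested. In tuft-like cells 0 of 25 passed (0.0319% of all genes) and 0 were at an unadjusted p under 0.05. DESeq2 called 0 in both classes.

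The 34 genes were set beside 147 other ER genes in 7 lists. In Paneth-like against stem-like cells 77 of the 106 tested rose, against 16.3% of all genes, and none fell (median 1.02). The list of ER stress sensors and their transcription factors had the highest median (3.97, 6 of 7 rose). Xbp1 lay at 445 ± 116 against 113 ± 26.5 (1.92), Ern2, the epithelial form of IRE1, rose by 5.34, and Bhlha15 (Mist1), a regulator of secretory cells, by 5.62. Of the genes of ER to Golgi transport 22 of 28 rose (Tmed10 1.19), of translocation 11 of 13 (Serp1 2.68, Sec62 1.90), of folding 12 of 17 (Selm 4.51), of degradation 13 of 15 (Edem2 3.35, Edem1 2.73), of N-glycosylation 9 of 19 (Magt1 1.63) and of the genes downstream of PERK and ATF4 4 of 7. Nupr1, a stress-induced gene of the last list, lay at 1652 ± 977 against 6.19 ± 7.46.

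In goblet-like cells 77 of the 106 rose, against 16.2% of all genes, and 1 fell (median 1.10). Xbp1 (2.04), Ern2 (5.98), Creb3l1 (5.53) and Rpn1 (1.49) were among those that rose. Of the genes downstream of PERK and ATF4 2 of 7 rose there. Set directly against goblet-like cells, Paneth-like cells were higher for 14 and lower for 8 of these 106 genes, against 6.04% and 6.54% of all genes, so that the lower count is near the background. Nupr1 (3.26), the asparagine synthetase Asns (1.05), Bhlha15 (1.61) and Sec62 (0.73) were higher, and Creb3l1 (-1.56), Pdia5 (-2.53) and the oligosaccharyltransferase subunit Rpn1 (-0.96) lower. In Paneth-like cells from 5 days to 8 weeks 27 of 58 rose, against 21.7% of all genes, and 1 fell. The gate and the sex marker differ with time here too. Xbp1 (0.70), Bhlha15 (1.77), Serp1 (1.48), Sec62 (2.19), Magt1 (1.92) and Edem1 (1.79) were among those that rose. Atf3 was the one that fell, from 618 ± 377 at 5 days to 0 in all 3 libraries of 8 weeks. A fall in its list, the genes downstream of PERK and ATF4, was not limited to Paneth-like cells. Between the same times 1 gene of the 2 tested fell in goblet-like cells and 1 of 5 in stem-like cells.

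**Figure D5:**
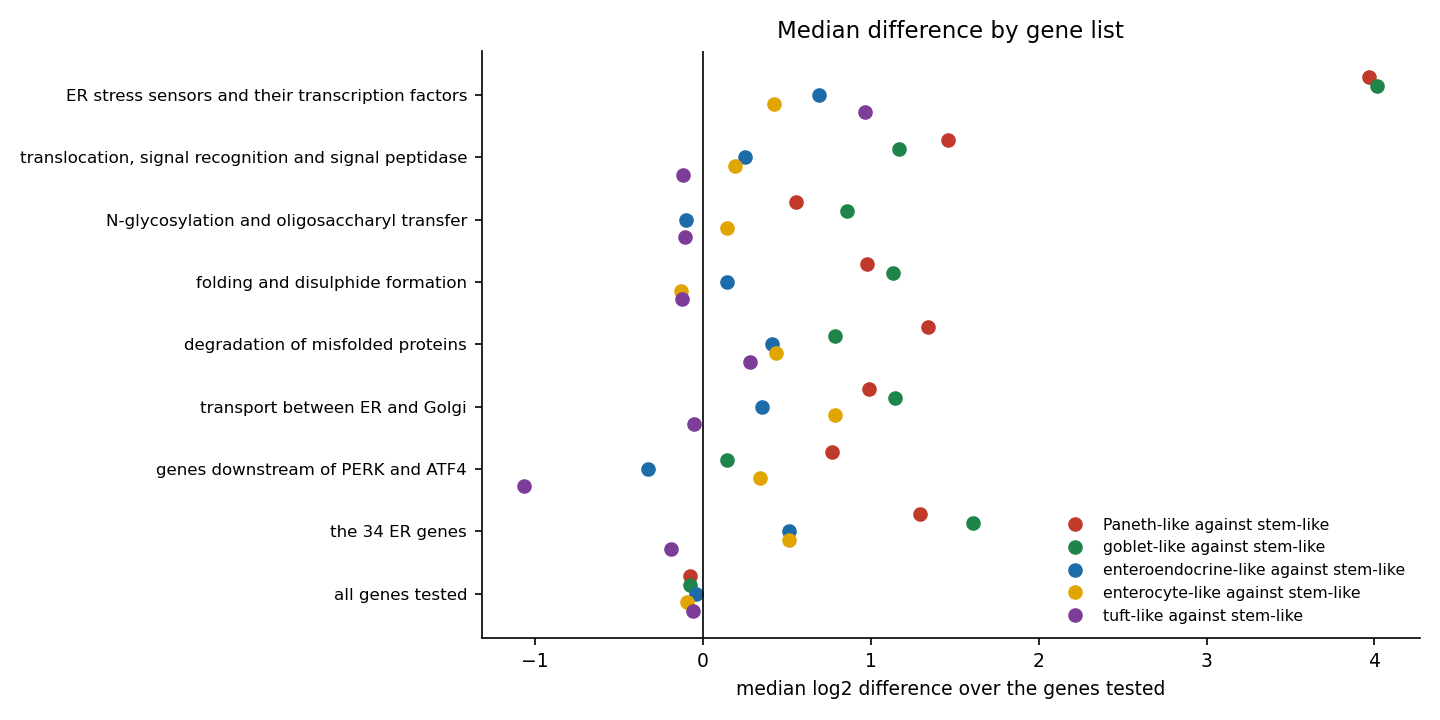
Median log2 difference against stem-like cells (x axis) over the tested genes of 7 ER lists, the 34 ER genes and all genes, for 5 cell classes (colours), which share the stem-like libraries. The sensor list lies furthest right in Paneth-like (3.97) and goblet-like cells (4.02), and the medians of all genes lie between -0.09 and -0.04.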

How the data were processed

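Each deposited library file gives, for 96 cell barcodes, expected counts of the transcripts of every gene. Read from the values, the authors corrected each number of molecular barcodes for collisions among 256, with no scaling between cells. A deposited combined table of the same kind of expected counts was only compared: 7 of 7 sets matched a library. Per the submitters' processing notes, reads were aligned with BWA 0.6.2-r126 to mm10; gene models are not given in the sources used here. Spike-in rows were left out of library sizes (1.31% to 16.6% of transcripts).

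Cells with at least 3000 transcripts were clustered (2000 variable genes, 30 principal components, 10 neighbours, leidenalg 0.10.2, resolution 1) without the ER genes. Clusters were named by at least 3 raised markers; the naming limits were set after the data were seen. Counts of a class with at least 3 cells in a library were summed, rounded and put into edgeR 4.0.16 (TMM, quasi-likelihood test, filterByExpr, Benjamini-Hochberg over all genes): 1 joint fit for classes with library as a block, and 2-group fits for conditions. Scripts were tested on simulated data. In simulated Paneth-like against stem-like sums, 73.2% to 83.3% of 2-fold changes were found. Alternatives were DESeq2 1.42.0, other filters, cluster settings, scalings and libraries left out.

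The members and lists were chosen with earlier results of these data known. Named were members past an adjusted p of 0.05, the 3 with the smallest p in full, Hspa5, Hsp90b1, Ddit3 and Atf4 in Paneth comparisons, and per other list at most 3 genes with the highest level. Named besides, after their values were seen, were members that did not pass.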

Additional observations from a re-analysis of the deposited data

Results flagged for a closer look

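In 10 cases the change of a member from 5 days to 8 weeks differed between classes by an interaction test (edgeR, adjusted p under 0.05). Against stem-like cells the log2 change was larger in Paneth-like cells for Calr by 1.48, Ostc by 1.68, P4hb by 1.67, Slc35b1 by 1.79 and Txndc5 by 1.71. Against goblet-like cells it was larger for Atf4 by 1.48, Pdia6 by 1.39, Sec61g by 1.45, Slc35b1 by 2.06 and Txndc5 by 1.42. Slc35b1 and Txndc5 are in both sets, which share Paneth-like libraries. The test against goblet-like cells rested on 4 libraries. Sex and time cannot be told apart between 5 days and 8 weeks, and the 8-week libraries tested also had the CD24+ gate. The Paneth-like and the stem-like cells of these times lay mostly in different clusters. In the 7 classes, each with 4 or more libraries pooled over times and gates, no summed share stood apart from the others. Pooled in this way, the Paneth-like shares ran from 0.505% to 0.972%, so that the check says little about libraries of the same time.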

How the results depend on the processing

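Expected counts of few cells set the precision: some Paneth-like and goblet-like sums rest on 3 or 4 cells, and Ddit3 could not be tested. Members called in the main fits were followed under other settings and with libraries left out: 1577 values kept the call, 245 lost it and 9 reversed. The cause of a moved value was not tested. Paneth-like against stem-like: 13 higher and 6 lower scaled by total transcripts (added after seeing the data), with Dnajb11 -0.11, Ostc -0.14, Spcs1 -0.27 and Ssr1 -0.24; in 5-day libraries 10 higher and 1 lower, with Ostc -0.18 and Spcs1 -0.18. Paneth-like against goblet-like: higher 1 and lower 15 without mixed cells, higher 5 and lower 8 with the cluster of Paneth and goblet markers counted as Paneth-like, higher 0 and lower 29 by total transcripts (Dnajc3 -0.058, Herpud1 -0.21, P4hb -0.18), higher 1 and lower 5 with these classes fitted alone, higher 0 in 5-day and higher 7 and lower 6 in 8-week libraries, lower 9 at resolution 0.5 and 9 by marker share. Tuft-like: higher 1 by marker share, lower 3 at resolution 2, 2 by marker share, 2 by DESeq2, 1 fitted alone and 4 in 8-week libraries. Enterocyte-like: higher 11 at resolution 0.5, 8 fitted alone and 10 in 5-day libraries, lower 2 at 1500 transcripts, 2 without mixed cells and 1 in 5-day libraries.

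Paneth-like, 8 weeks against 5 days: 14 by total transcripts, 12 without mixed cells and 15 by DESeq2. Stem-like: lower 0 by marker share, at 5000 transcripts, by DESeq2, by total transcripts and without a filter. Goblet-like: 0 by DESeq2 and 1 with library sizes without markers. Paneth minus stem: 0 by DESeq2, 3 without a filter, 2 by total transcripts and 1 without mixed cells. Paneth minus goblet: 0, 1, 1 and 0. Traced against non-traced Paneth-like: lower 1 with the cluster of both markers. No label ties same replicate numbers together. Deviations of same-numbered libraries correlated at 0.080 to 0.22 between traced and non-traced 8-week libraries, where only 2 numbers are shared and, by cell names in the combined table, number 1 is of a first round and number 2 of a second, and at -0.078 to 0.043 between 8 weeks and 5 days. With the replicate block 5 rose in stem-like cells, 1 in traced enteroendocrine-like cells and 16 in Paneth-like cells. A block for the 2 rounds of 8-week libraries called 0 members.

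Leaving out each library gave these ranges: tuft-like higher 1 to 4 (1 without 8-week traced CD24+ replicate 1), enterocyte-like higher 10 to 17 (10 without the ungated 8-week library) and lower 0 to 1, enteroendocrine-like traced 0 to 1, Paneth-like 8 weeks 14 to 24 (14 without traced CD24+ replicate 3), stem-like higher 2 to 5 (5 without 5-day replicate 5) and lower 0 to 1, goblet-like 0 to 1, Paneth minus stem 1 to 7 and Paneth minus goblet 0 to 5. Where 1 library was left in a group, it was assumed to vary like the others.

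Log2 ratios of the summed share: Paneth-like to stem-like 0.55 by marker share and 0.96 without markers; goblet-like 1.89 at resolution 2 and 1.80 at 5000 transcripts; tuft-like 0.20 at resolution 2 and 0.31 by marker share; enteroendocrine-like 0.80 by marker share; enterocyte-like 0.96 and 1.05 at resolutions 0.5 and 2, and 0.94 at 5000 transcripts; Paneth-like to goblet-like -0.64 without markers; Paneth-like traced to non-traced -0.37 at resolution 0.5 and with the cluster of both markers, and -0.20 without mixed cells; tuft-like traced to non-traced 0.065 to 0.12 over libraries left out; Paneth-like 8 weeks to 5 days 1.15 at resolution 0.5 and with that cluster, 0.93 by marker share, 0.59 without mixed cells and 1.12 without markers; stem-like 0.39 at resolution 2 and at 5000 transcripts; goblet-like 0.62 at both resolutions, 0.80 by marker share and 0.56 at 5000 transcripts.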

Other observations

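A cluster of 22 cells had leading markers of both Paneth and goblet cells (Spink4, Defa17, Mmp7, Tff3, Muc2 and Agr2 among its 10 leading genes) and stayed unnamed. These cells gave a median of 2.07% of their transcripts to the 34 ER genes, and a median of 315 transcripts of them per cell. The medians were 0.765% and 151 in Paneth-like cells and 2.03% and 180.3 in goblet-like cells. The cells came from 8-week libraries, 14 of them from the 2 non-traced CD24+ libraries. Their median depth was 16171 transcripts, against 18184 in Paneth-like and 8718 in goblet-like cells, and doublets were not called.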
